A study of Mus musculus with 17 samples.

Results

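Lyz2 and Lyz1, the mouse genes of lysozyme M and lysozyme P, were followed in RNA-seq libraries of bone marrow macrophages (BMMs) and of pre-osteoclasts (preOCs). They are 2 of the 41388 genes in the count tables and were chosen by name, because Lyz2 is the gene that carries the Cre recombinase of the Bap1LysM mice and Lyz1 is its neighbouring copy. BMMs were grown from marrow with M-CSF, and preOCs received RANKL at 100 ng/ml with M-CSF for 24 h. The Bap1flox cells came from Bap1 flox/flox mice without Cre, and the Bap1LysM cells from flox/flox littermates with LysM-Cre, given in the study's methods as +/-. Both genotypes therefore share the floxed Bap1 alleles and differ by Cre and by what Cre deletes, so an effect of Cre at Lyz2 and an effect of Bap1 loss cannot be told apart in any genotype comparison. The study's text gives males aged 20 weeks for the preOCs. The age and sex behind the BMM libraries are not given in the sources used here. The labels give 3 Bap1flox and 3 Bap1LysM BMM libraries numbered 1 to 3, 6 Bap1flox preOC libraries numbered 1 to 6, and 5 Bap1LysM preOC libraries numbered 1, 2, 4, 5 and 6. Libraries 1 to 3 and libraries 4 to 6 are called library sets here, a split by number, since BMMs exist in libraries 1 to 3 alone.

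Lysozyme cuts the peptidoglycan of bacterial cell walls and is among the most abundant secreted proteins of macrophages, monocytes and neutrophils. Mice have a duplicated gene, of which Lyz2 is the form of myeloid cells and Lyz1 is best known from Paneth cells of the intestine. In LysM-Cre mice the recombinase stands at the start of Lyz2 and replaces the product of that allele, so that Cre is made where Lyz2 is transcribed, in the myeloid lineage. In osteoclast cultures M-CSF keeps the cells as macrophages and RANKL, the ligand of RANK, turns them towards osteoclasts.

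Total counts ranged from 37967542 to 61369441 per library, so counting error is small for both genes. Mitochondrially encoded genes took 0.45% to 0.99% of counts in libraries 1 to 3 and 2.23% to 4.91% in libraries 4 to 6. Bap1, the targeted gene, had 82.1 to 84.4 CPM (a library-size scaled count, the deposited unit) in Bap1flox BMMs, 74.8 to 77.1 in Bap1LysM BMMs, 70.3 to 97.1 in Bap1flox preOCs and 55.9 to 87.7 in Bap1LysM preOCs. Its log2 fold change between genotypes was -0.22 in preOCs (edgeR adjusted p = 0.182) and -0.11 in BMMs (edgeR adjusted p = 0.344), and these counts cover the whole gene, not the deleted part alone. With voomWithQualityWeights of limma, the test the study's methods name, Bap1 was called lower in preOCs, at -0.31 (SE 0.07, limma adjusted p = 0.00372). Macrophage markers summed to 9101 to 12190 CPM in the BMM groups, and osteoclast precursor markers to 6178 to 17880 CPM in preOCs against 316.3 to 520.9 CPM in BMMs. All 11 osteoclast precursor markers were higher in Bap1flox preOCs than in Bap1flox BMMs, against 31.7% of all tested genes.

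Lyz2 (ENSMUSG00000069516) lies on the minus strand of chromosome 10, chr10:117277334-117282274 in GRCm38. Lyz1 (ENSMUSG00000069515) lies on the same strand at chr10:117287796-117292868, and 5521 bases without another annotated gene separate them. Each gene has 4 exons. The middle exons have the same length in both genes, 165 and 79 bases, as does the last, of 854 bases, whereas the first has 168 bases in Lyz2 and 166 in Lyz1. The coding sequences have 447 bases each and differ at 22 of them, an identity of 95.1%. The following stretch of coding bases 43 to 132, read from the GENCODE M21 transcripts, holds 13 of the 22 differences, and capitals mark the differing bases. It is shown because reads can be assigned to either gene only where such differences fall.
Lyz2: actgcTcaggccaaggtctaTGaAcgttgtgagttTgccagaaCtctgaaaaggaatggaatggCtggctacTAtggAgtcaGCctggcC
Lyz1: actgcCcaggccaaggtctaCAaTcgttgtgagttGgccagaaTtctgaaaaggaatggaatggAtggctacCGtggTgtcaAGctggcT

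Over whole transcripts the identity was 91.95%, counting gaps as differences, and the longest identical run was 118 bases. Of the 1114 windows of 150 bases in the Lyz1 transcript, the length of a read, 0 occur unchanged in Lyz2, 9 differ from a Lyz2 window by at most 1 base and 90 (8.08%) by at most 2. Of the windows of 50 bases, 16.1% are shared. The study counted uniquely aligned, unambiguous reads, so reads that fit both genes equally were left out, and the share of Lyz1 counts that came from Lyz2 transcripts was not tested. The values of Lyz1 are uncertain to that extent.

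The 250 bases before each start, from RefSeq on GRCm38.p6, are shown because both genes fell together with RANKL in Bap1flox cells. They lie at chr10:117282273-117282522 for Lyz2 and chr10:117292869-117293118 for Lyz1, both read on the minus strand, 5′ to 3′. Capitals mark the letters AGGAAG, the core bound by ETS factors such as PU.1 and FLI1, or their complement CTTCCT.
Lyz2: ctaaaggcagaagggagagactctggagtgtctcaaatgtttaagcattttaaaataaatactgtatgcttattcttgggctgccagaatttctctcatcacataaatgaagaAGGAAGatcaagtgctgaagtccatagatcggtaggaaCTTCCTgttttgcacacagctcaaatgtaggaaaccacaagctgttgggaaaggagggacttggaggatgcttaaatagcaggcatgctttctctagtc
Lyz1: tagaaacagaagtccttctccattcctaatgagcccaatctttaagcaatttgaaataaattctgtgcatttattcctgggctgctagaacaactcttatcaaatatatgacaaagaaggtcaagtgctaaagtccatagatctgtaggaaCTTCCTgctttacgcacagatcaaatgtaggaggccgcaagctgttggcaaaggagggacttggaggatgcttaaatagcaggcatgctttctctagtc

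The 2 stretches were 79.4% identical. AGGAAG was found on either strand at 2 places in Lyz2, 137 and 99 bases before the start, and at 1 place in Lyz1, 99 bases before it, so the nearer match is shared. Of 32851 promoters of the same length, 29.5% hold it. The C/EBP letters TTGCNNAA were found once in Lyz1, 209 bases before the start, and not in the Lyz2 stretch, against 9.56% of promoters. The PU box GAGGAA (23.3% of promoters) and TATAAA (12.4%) were in neither stretch. A match describes the letters only.

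Lyz2 was among the most abundant transcripts of Bap1flox cells. Bap1flox BMM libraries 1, 2 and 3 had 21838, 19504 and 19817 CPM of Lyz2, and by RPKM (CPM per kilobase of gene length) it ranked 1, 2 and 2 among all genes. In Bap1flox preOCs it had 8560, 7451 and 7187 CPM in libraries 1 to 3 and 7850, 9718 and 12908 CPM in libraries 4 to 6, with ranks of 2 or 3. Every Bap1flox BMM library thus lay above every Bap1flox preOC library, and the widest spread was within preOC libraries 4 to 6.

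Lyz1 was lower but still well expressed. It had 672, 576 and 606 CPM in Bap1flox BMMs, 256, 229 and 209 CPM in Bap1flox preOC libraries 1 to 3, and 136, 171 and 216 CPM in libraries 4 to 6. Per length, Lyz2 had 16103 ± 1001 RPKM (SD, n = 3) and Lyz1 489 ± 38.8 RPKM in Bap1flox BMMs.

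In Bap1LysM cells, libraries numbered 1 stand apart from the others and decide what a comparison of groups shows. Lyz2 had 8722 CPM in Bap1LysM BMM library 1 but 35.4 and 29.7 CPM in BMM libraries 2 and 3. It had 6715 CPM in Bap1LysM preOC library 1 but 13.6, 38.3, 39.0 and 30.5 CPM in preOC libraries 2, 4, 5 and 6. Relative to the mean of Bap1flox libraries of the same condition and set, libraries numbered 1 held 42.8% (BMM) and 86.8% (preOC) of the Lyz2 level, and the other 6 of the 8 Bap1LysM libraries held 0.146% to 0.384%. With Cre given as +/-, each mouse would keep a Lyz2 allele without the insertion, and the number of Cre copies was not tested. The match of libraries numbered 1 to their label was not tested, and other measures lay on either side. Bap1LysM preOC library 1 lay within the range of Bap1flox preOCs for Bap1 (77.0 CPM) and for the summed neutrophil (195.5 CPM) and monocyte markers (20.1 CPM). Bap1LysM preOC library 2 also lay within it for Bap1 (87.7 CPM) and neutrophil markers (208.0 CPM), but above it for monocyte markers (36.7 CPM). Bap1LysM BMM library 1 lay below the range of Bap1flox BMMs for Bap1 (76.8 against 82.1 to 84.4 CPM). It lay above that range for monocyte markers (198.1 against at most 190.6 CPM) and within it for neutrophil markers (258.5 CPM). The summed B and plasma cell markers of libraries numbered 1 were 28.5 (BMM) and 26.7 CPM (preOC), where the other Bap1LysM libraries had 18.3 to 48.8 CPM and no Bap1flox library had more than 8.52. Values of Lyz2 and Lyz1 between groups are given with and without both libraries numbered 1.

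Lyz1 also lay below its Bap1flox mean in most of these libraries, but by less. It had 325, 67.1 and 85.3 CPM in Bap1LysM BMM libraries 1, 2 and 3, which is 52.6%, 10.8% and 13.8% of the Bap1flox BMM mean. In Bap1LysM preOCs it had 233 and 55.5 CPM in libraries 1 and 2, or 100.6% and 24.0% of the Bap1flox mean of their set. Libraries 4, 5 and 6 had 147, 135 and 149 CPM, or 84.3%, 77.7% and 85.4%. Thus library 1 was near its controls, library 2 far below, and libraries 4 to 6 between 135 and 149 CPM, the lower end of Bap1flox preOC libraries 4 to 6.

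**Figure D1:**
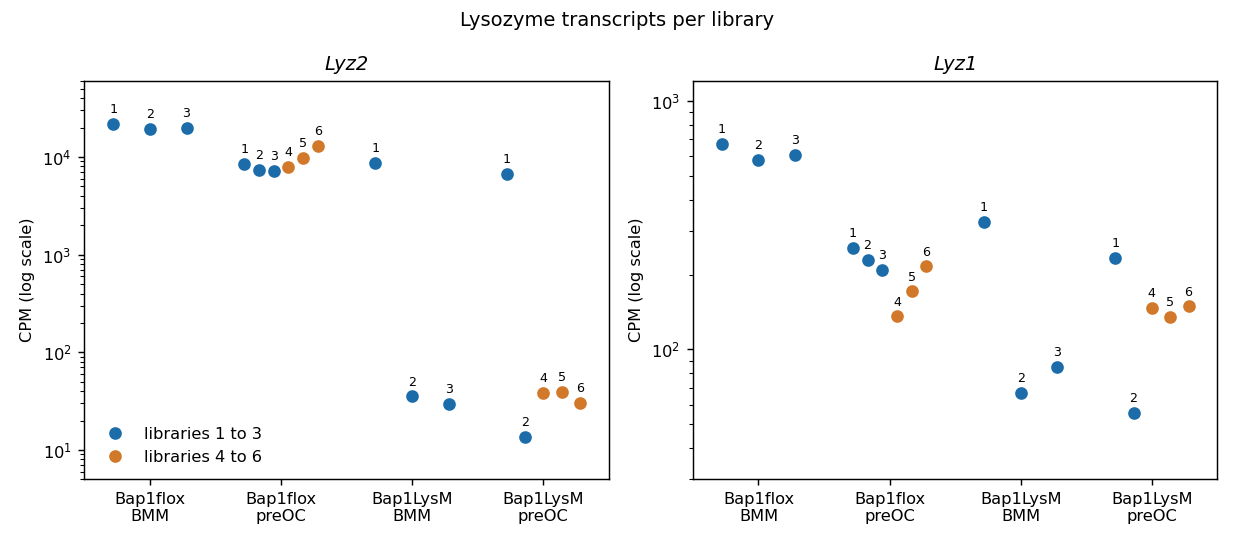
CPM of Lyz2 (left) and Lyz1 (right) on a log axis in each of the 17 libraries, by group, with the library number above each point and the library set in colour. Bap1LysM libraries numbered 1 lie at 8722 and 6715 CPM of Lyz2, and the other Bap1LysM libraries between 13.6 and 39.0 CPM.

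By group mean of Lyz2, Bap1flox BMMs came first with 20386 ± 1267 CPM (SD, n = 3), then Bap1flox preOCs with 8946 ± 2143 (n = 6). Bap1LysM BMMs followed with 2929 ± 5017 (n = 3) and Bap1LysM preOCs with 1367 ± 2990 (n = 5). The Bap1LysM SDs exceed their means, so these groups do not differ beyond their spread. Without libraries numbered 1 they were 32.5 ± 4.01 CPM in BMMs (n = 2) and 30.4 ± 11.8 CPM in preOCs (n = 4), again within the spread. Lyz1 had the same order of group means, from 618 ± 49.0 CPM in Bap1flox BMMs and 203 ± 42.9 in Bap1flox preOCs to 159 ± 144 in Bap1LysM BMMs and 144 ± 62.8 in Bap1LysM preOCs. Only the first step of the Lyz1 order exceeded the spread within groups. Without libraries numbered 1 both Bap1LysM groups changed places, with 76.2 ± 12.9 CPM in Bap1LysM BMMs (n = 2) and 122 ± 44.5 CPM in Bap1LysM preOCs (n = 4), a difference close to the SD of the preOCs.

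The RANKL comparison asks how lysozyme transcripts change as Bap1flox macrophages become preOCs, and it used libraries 1 to 3, the set that holds both conditions. Both genes fell about equally. Lyz2 had a log2 fold change of -1.59 (SE 0.10), a level 3.01-fold lower (edgeR adjusted p = 2.24e-05). Lyz1 had a log2 fold change of -1.61 (SE 0.11), 3.05-fold lower (edgeR adjusted p = 2.61e-05). Because the share of Lyz1 counts from Lyz2 transcripts was not tested, the 2 falls cannot be read as independent results. In the same comparison 64.6% of 13415 tested genes passed the adjusted p and 32.9% were called lower, so the call itself is common. Fewer genes reached the size of the change, since 5.66% of tested genes had a log2 fold change as low as that of Lyz2 or lower and 5.54% as low as that of Lyz1. Every preOC value lay below every BMM value for both genes, as for 27.9% of tested genes. The two-sided exact permutation test on log2 CPM gave p = 0.1 for each gene, the smallest that 3 against 3 libraries allow. In bulk RNA, fewer cells with a transcript and less of it per cell cannot be told apart.

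With all 6 Bap1flox preOC libraries the log2 fold change was -1.28 for Lyz2 and -1.71 for Lyz1, and both passed the adjusted p in edgeR. These values mix the condition with the library set, because BMMs exist in libraries 1 to 3 alone. Between the sets of Bap1flox preOCs, Lyz2 was 0.49 higher (SE 0.19) and Lyz1 0.31 lower (SE 0.17) on the log2 scale in libraries 4 to 6, with edgeR adjusted p of 0.0621 and 0.163.

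The third member of the lysozyme list with enough reads, Lyzl4, a lysozyme-like gene known from testis, was measured at a low level. It had 4.09 ± 2.03 CPM in Bap1flox BMMs (n = 3) and 1.28 ± 0.61 CPM in the 6 Bap1flox preOCs, and in libraries 1 to 3 its log2 fold change with RANKL was -1.53 (SE 0.46, edgeR adjusted p = 0.0213). The other 7 listed genes, Lyzl1, Lyzl6, Spaca3, Spaca5, Lalba, Lyg1 and Lyg2, had at most 12 counts in any library and were not tested. Spaca3 had 0 counts in all 17, which allows up to 3 counts per library. Lysozyme transcripts in these cultures were therefore almost entirely those of Lyz2 and Lyz1.

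Other antibacterial genes of macrophages went in both directions with RANKL. Of 16 listed, 4 rose, 6 fell and 6 did not pass the test. Of all tested genes 31.7% rose and 32.9% fell, so these counts are near the shares over all genes. The median log2 fold change of the 16 was -0.66, against -0.05 over all tested genes. With the replicate block 4 rose and 10 fell, where 30.8% of all tested genes rose and 32.7% fell. Slc11a1, the metal transporter of phagosomes, fell by 1.81 (SE 0.09) on the log2 scale and Nod1, a sensor of peptidoglycan fragments, fell by 1.78 (SE 0.08). Nos2, the inducible nitric oxide synthase, rose by 6.11 (SE 1.08) from near 0 to 1.36 CPM in the 6 preOCs, and Acod1, which makes itaconate, rose by 3.01 (SE 0.35). The edgeR adjusted p of these 4 genes was 1.1e-05, 7.96e-06, 0.00211 and 0.000295. Of 10 macrophage identity genes, 9 fell, where 32.9% of all tested genes did, and 1, the chemokine receptor Cx3cr1, rose by 1.21. The median of the 10 was -1.53, close to the values of Lyz2 and Lyz1. The largest falls were -3.79 for the mannose receptor Mrc1, -2.93 for Mertk, a receptor for dying cells, and -2.38 for the Fc receptor Fcgr1. The smallest fall was -0.48, for Cd68.

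Factors known to act on lysozyme genes were also listed. Of 8, 1 rose, 4 fell and 3 did not pass the test, so the share called was near the 64.6% of all tested genes. Spi1, which encodes PU.1, rose by 0.69 (SE 0.05). Cebpa, which encodes C/EBP alpha, fell by 2.15 (SE 0.08), Fli1 fell by 2.04 (SE 0.16) and Cebpb, which encodes C/EBP beta, fell by 0.44 (SE 0.11), with edgeR adjusted p from 4.28e-06 to 0.0118 for these 4 genes. Their part in the fall of Lyz2 and Lyz1 was not tested.

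**Figure D2:**
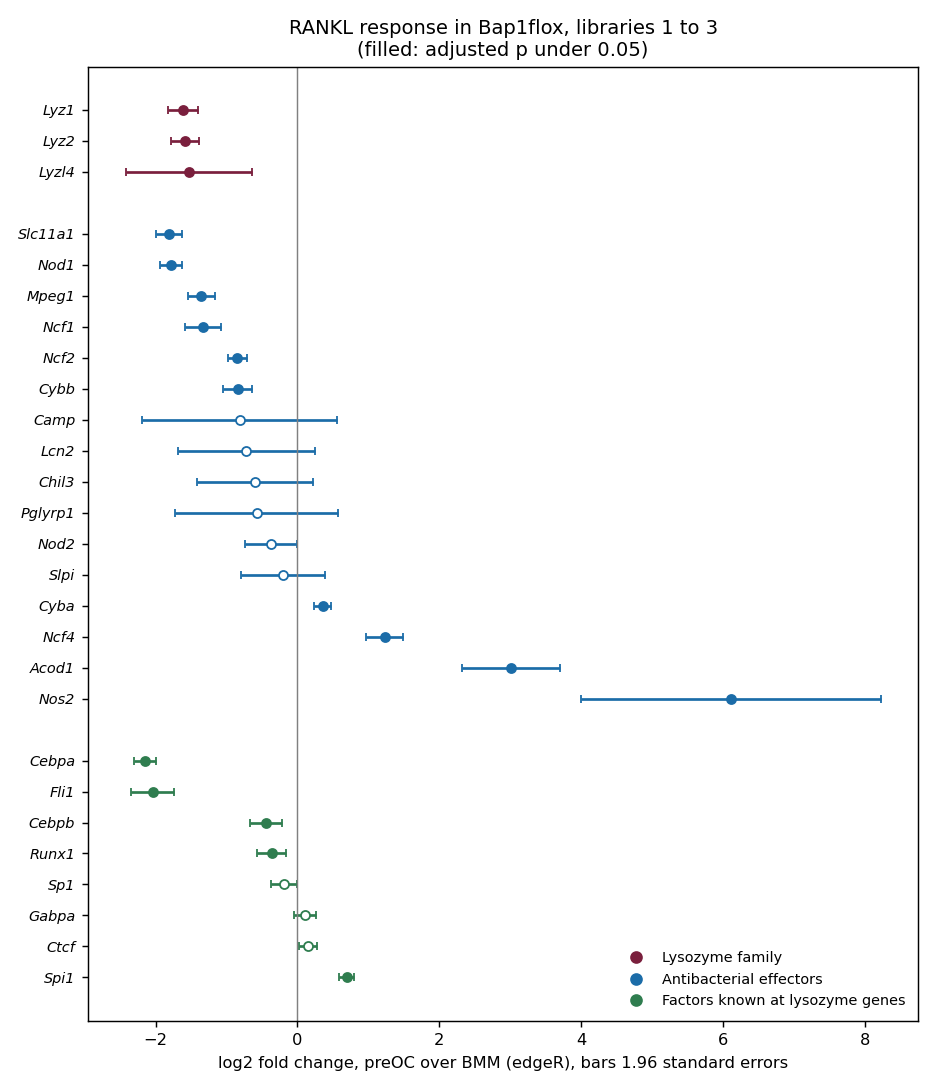
Log2 fold change with RANKL in Bap1flox libraries 1 to 3 for each tested gene of the lysozyme, antibacterial and factor lists, with bars of 95% intervals. Filled points passed the edgeR adjusted p, and Lyz1, Lyz2 and Lyzl4 lie at -1.61, -1.59 and -1.53.

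The RANKL response of Bap1LysM cells depended on libraries numbered 1. With them, the log2 fold change was 0.10 for Lyz2 (SE 2.73, edgeR adjusted p = 0.984) and -0.24 for Lyz1 (SE 0.90, edgeR adjusted p = 0.873), in a comparison that called 18.4% of genes and 7.6% lower. Within same-numbered libraries both genes were lower in preOCs, Lyz2 with 6715 against 8722 CPM in number 1 and 13.6 against 35.4 CPM in number 2. With the replicate number as a block, to which BMM library 3 adds nothing, the direction turned, to -0.98 for Lyz2 (SE 0.33, edgeR adjusted p = 0.0937), and Lyz1 was at -0.49 (SE 0.15, edgeR adjusted p = 0.0792). Without them, BMM libraries 2 and 3 at 35.4 and 29.7 CPM faced preOC library 2 at 13.6 CPM, and Lyz2 had a log2 fold change of -1.40 (SE 0.23, edgeR adjusted p = 0.00392). This is a fall of 2.64-fold, in a fit that called 32.6% of genes and 16.4% lower. Lyz1 had a log2 fold change of -0.61 there (SE 0.22, edgeR adjusted p = 0.0718). A lone preOC library has no spread of its own and is assumed in this fit to vary like the BMMs.

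Whether the RANKL response differs between genotypes was tested by the interaction over the 11 libraries numbered 1 to 3. Its log2 value was 1.68 for Lyz2 (SE 2.84, edgeR adjusted p = 0.842) and 1.36 for Lyz1 (SE 0.94, edgeR adjusted p = 0.58). No difference in response was therefore detectable, and the intervals were wide. Across all 14106 genes edgeR called 0, with 1751 at an unadjusted p under 0.05, and DESeq2 called 111. Without libraries numbered 1 the interaction was 0.19 for Lyz2, with a 95% interval of -0.20 to 0.57 (edgeR adjusted p = 0.676). For Lyz1 it was 1.00, with an interval of 0.55 to 1.45 and an adjusted p of 0.158 from edgeR. Bap1LysM preOC library 2 is then the only library of its group, so these intervals take its spread from the other groups.

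In preOCs the genotype comparison asks how far Cre-bearing cells differ from flox cells in both lysozymes. Over all 11 libraries Lyz2 had a log2 fold change of -2.60 (SE 1.46, edgeR adjusted p = 0.254), where 15.8% of 12929 genes were called and 8.68% were called lower. With the replicate number as a block it was -7.53 (edgeR adjusted p = 0.00967). Without library 1 it was -8.12 (SE 0.44), 279-fold lower (edgeR adjusted p = 7.54e-06), where 23.7% of genes were called and 13.1% called lower. Within libraries 4 to 6 it was -8.09 (SE 0.26, edgeR adjusted p = 2.66e-06), where 33.8% of genes were called and 18% called lower. Within libraries 1 to 3, where the Bap1LysM libraries 1 and 2 had 6715 and 13.6 CPM, it was -1.02 (SE 1.81, edgeR adjusted p = 0.792). In that fit edgeR called 0 of 13611 genes, with 2373 at an unadjusted p under 0.05. By deposited CPM every Bap1LysM value lay below every Bap1flox value, as for 7.67% of tested genes. By log2 CPM scaled with TMM factors, as edgeR uses them, library 1 lay above 2 of the 6 Bap1flox libraries, and the means differed by -6.59 (two-sided exact permutation p = 0.013).

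Lyz1 differed far less between genotypes in preOCs. Its log2 fold change was -0.40 over all libraries (SE 0.29, edgeR adjusted p = 0.394) and -0.65 without library 1 (SE 0.28, edgeR adjusted p = 0.113). Within libraries 4 to 6, where Lyz2 was 272-fold lower, that of Lyz1 was -0.23, with a 95% interval of -0.54 to 0.08 (edgeR adjusted p = 0.3). Within libraries 1 to 3 it was -0.54 (SE 0.60, edgeR adjusted p = 0.664). Its groups overlapped, as the values above show.

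In BMMs both genes were lower in Bap1LysM libraries 2 and 3. Over all 6 libraries the log2 fold change was -2.72 for Lyz2 (SE 1.93, edgeR adjusted p = 0.396) and -1.91 for Lyz1 (SE 0.61, edgeR adjusted p = 0.113), where 5.32% of 13028 genes were called and 4.01% called lower. With the replicate number as a block Lyz1 was at -2.33 (edgeR adjusted p = 0.0243) and Lyz2 at -7.69 (edgeR adjusted p = 0.0757). Without library 1 Lyz2 was at -9.31 (SE 0.18, edgeR adjusted p = 4.5e-05) and Lyz1 at -3.03 (SE 0.16, edgeR adjusted p = 0.00667), 634-fold and 8.18-fold lower, where 2.64% of genes were called and 2.17% called lower. Every Bap1LysM BMM value lay below every Bap1flox BMM value for both genes, as for 19% of tested genes, and the exact permutation test gave p = 0.1, the smallest it can give.

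**Figure D3:**
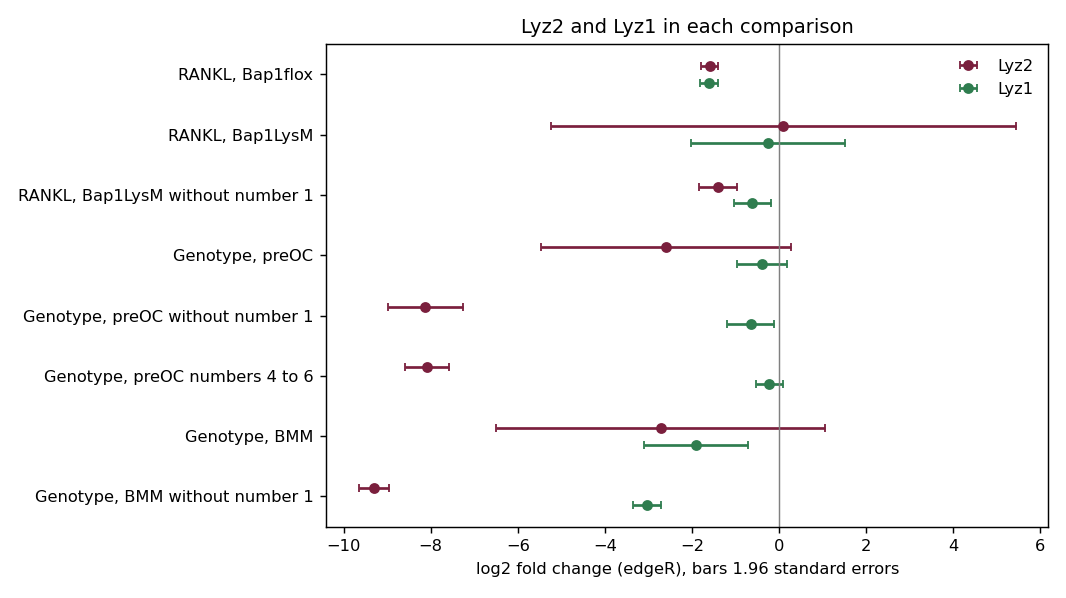
Log2 fold changes of Lyz2 and Lyz1 from edgeR in each comparison, with and without Bap1LysM libraries numbered 1, with bars of 95% intervals. Without those libraries Lyz2 lies at -8.12 in preOCs and -9.31 in BMMs, and Lyz1 at -0.65 and -3.03.

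The level of Lyz1 relative to Lyz2 was steady within each set of Bap1flox libraries. Bap1flox BMM libraries had 3.08, 2.96 and 3.06 Lyz1 counts per 100 Lyz2 counts, and preOC libraries 1 to 3 had 2.99, 3.07 and 2.90. As a log2 ratio per length this was -5.04 ± 0.03 in BMMs and -5.06 ± 0.04 in preOCs (SD, n = 3 each). The difference of -0.02 was within the spread (two-sided exact permutation p = 0.6), so the ratio did not move detectably while both genes fell 3.01- and 3.05-fold. How far Lyz2 reads counted to Lyz1 enter this ratio was not tested.

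Bap1flox preOC libraries 4 to 6 had a lower ratio, 1.73, 1.76 and 1.67 Lyz1 counts per 100 Lyz2, or a log2 ratio of -5.86 ± 0.04 (SD, n = 3). The sets differed by 0.80 on the log2 scale without overlap (two-sided exact permutation p = 0.1, the smallest possible). The share of mitochondrial counts separates the same libraries. So do the summed stromal markers, at 1183, 1834 and 2056 CPM in Bap1flox preOC libraries 1 to 3 and 215.5, 309.5 and 169.9 CPM in libraries 4 to 6. Their part in the ratio was not tested.

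In Bap1LysM the order of the genes was inverted in 6 of 8 libraries. Lyz1 counts per 100 Lyz2 were 190 and 287 in BMM libraries 2 and 3 and 408, 383, 347 and 487 in preOC libraries 2, 4, 5 and 6. In libraries numbered 1 they were 3.73 (BMM) and 3.46 (preOC), just above all 9 Bap1flox values. Lyz1 was 3.60% of lysozyme counts in BMM library 1 (95% exact Clopper-Pearson interval 3.54% to 3.65%), against 2.99% (2.96% to 3.02%) in Bap1flox BMM library 1, and these intervals cover counting error only. The inverted ratio arose while Lyz1 itself lay below the Bap1flox mean of its condition and set in these 6 libraries.

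Tested per library, the log2 ratio was 6.10 higher in Bap1LysM than in Bap1flox preOCs (two-sided exact permutation p = 0.00433, 0.013 after adjustment over 3 ratio tests). Of 5 Bap1LysM preOC libraries 4 lay above 0, and all 5 lay above every Bap1flox preOC. It was 7.48 higher without library 1 (exact permutation p = 0.00952) and 7.87 higher within libraries 4 to 6 (exact permutation p = 0.1, the smallest possible). In BMMs it was 4.28 higher (exact permutation p = 0.1) and 6.27 higher without library 1 (exact permutation p = 0.2, the smallest that 2 against 3 libraries allow).

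**Figure D4:**
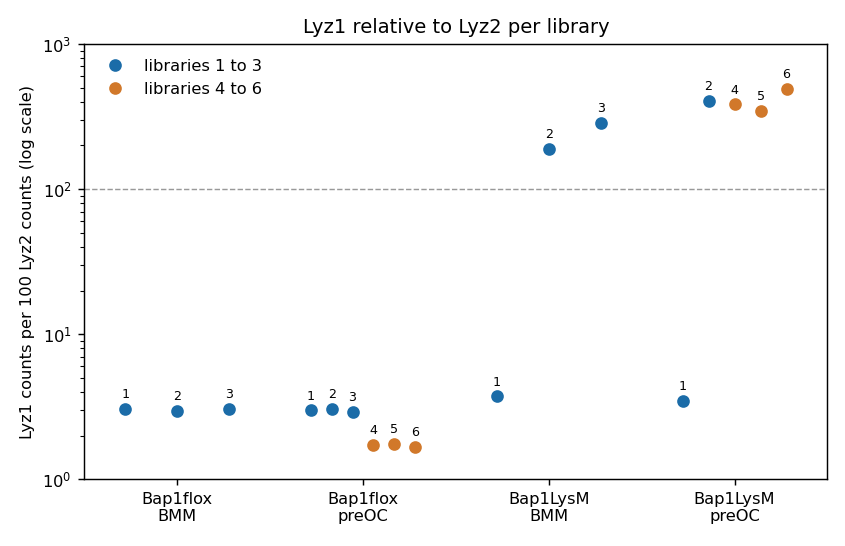
Lyz1 counts per 100 Lyz2 counts on a log axis in each of the 17 libraries, with the library number above each point and a dashed line at equal counts. Bap1flox libraries lie between 1.67 and 3.08, Bap1LysM libraries numbered 1 at 3.73 and 3.46, and the other 6 between 190 and 487.

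Markers of other cells that make lysozyme moved with genotype in preOCs, so their values stand here beside Lyz2 and Lyz1. Of 12 tested neutrophil markers 9 were higher in Bap1LysM preOCs and 0 lower, where 7.12% of all tested genes were higher, with a median log2 fold change of 1.51. The 13 listed summed to 103.9 to 259.3 CPM in Bap1flox preOCs and 195.5 to 633 CPM in Bap1LysM preOCs, and Ly6g, a defining surface marker, was near 0 with means of 0.07 and 0.18 CPM. The higher sums were those of Bap1LysM libraries 4 to 6, from 474.1 to 633 CPM. Bap1LysM libraries 1 and 2 had 195.5 and 208.0 CPM, within the range of Bap1flox libraries 1 to 3. Within libraries 1 to 3 edgeR called 0 of the 12 markers, with 1 at an unadjusted p under 0.05. It called 0 of all 13611 tested genes in that fit, so this count says nothing particular to the markers. Within libraries 4 to 6, 11 were called higher, against 15.8% of all tested genes, and 1 lower. With the replicate block 10 were higher, against 16.1%, and 1 lower. The lower marker was in both cases Mmp8, a neutrophil collagenase, at -1.32 (edgeR adjusted p = 0.0015) and -1.16 (edgeR adjusted p = 0.00193), and it was at -1.07 over all libraries (edgeR adjusted p = 0.108). Of 4 monocyte markers 2 were higher, with sums of 14.7 to 33.4 and 20.1 to 108.6 CPM. Without library 1, 10 neutrophil and 3 monocyte markers were higher, where 10.6% of all tested genes were. All 4 monocyte markers were higher within libraries 4 to 6 and with the replicate block. B and plasma cell markers, led by Igkc, summed to 1.90 to 8.52 and 26.7 to 48.8 CPM. Cd79a and Ms4a1 had means under 0.45 CPM in both. Neutrophils and monocytes are known to express Lyz2. Their part in the Lyz2 and Lyz1 values was not tested.

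Antibacterial genes were also counted between preOC genotypes. Of 16, 8 were higher in Bap1LysM preOCs, against 7.12% of all tested genes, and 0 lower, with a median of 0.77 against -0.01 over all genes. The largest values were for Slpi (2.02, edgeR adjusted p = 0.00685), a protease inhibitor, and for Camp (1.63), Lcn2 (1.62) and Chil3 (1.58), granule or secreted proteins also made by neutrophils, with edgeR adjusted p of 0.0176, 0.00884 and 0.00737. Camp is also in the neutrophil list. Without library 1, 7 were higher, against 10.6% of all tested genes. Within libraries 1 to 3 edgeR called 0, as it did of all 13611 tested genes, with 6 at an unadjusted p under 0.05. Within libraries 4 to 6 it called 8 of 15, all higher, against 15.8% of all tested genes. With the replicate block 10 of 16 were higher, against 16.1%. Of the 8 factors known at lysozyme genes, edgeR called 0 between genotypes in preOCs and 0 in BMMs, with 3 and 1 at an unadjusted p under 0.05. DESeq2 called 3 and 0, where it called 22.5% and 15.9% of all genes, in preOCs 11.7% higher. voomWithQualityWeights called 5 and 1, where it called 54.9% and 13.6% of all genes, 26.8% and 5.53% higher. In edgeR the replicate block gave 3 in preOCs, where 32.8% of all genes were called and 16.1% called higher, and 0 in BMMs. Within libraries 4 to 6 edgeR called 4 in preOCs, against 15.8% of all genes called higher. With the library set as a term it called 5, against 16.6%. Within libraries 1 to 3 it called 0 of the 8 and 0 of all 13611 genes. Every one of these factor calls was higher in Bap1LysM. Without library 1 edgeR again called 0 and 0, with 4 and 0 at an unadjusted p under 0.05.

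Genes beside the Cre insertion were counted to see whether expression changed along the locus. Within 1 Mb of either end of Lyz2, apart from Lyz1, 12 of 34 annotated genes were tested. In preOCs 3 were lower in Bap1LysM and 0 higher, 25% against 15.8% of all tested genes. The balance moved with the fit. There were 3 higher and 3 lower with voomWithQualityWeights and within libraries 4 to 6, 4 and 3 with the library set as a term and with the replicate block, and 1 and 3 with DESeq2. These are 50%, 50%, 58.3%, 58.3% and 33.3% of the 12 genes, against 54.9%, 33.8%, 33.6%, 32.8% and 22.5% of all genes. Within libraries 1 to 3 edgeR called 0, as it did of all 13611 tested genes, with 4 at an unadjusted p under 0.05. In BMMs 0 passed in edgeR, against 5.32% of all genes, with 5 at an unadjusted p under 0.05 and 2 called by DESeq2 and by voomWithQualityWeights, 16.7% against 15.9% and 13.6% of all genes. The genes next to the pair, Yeats4 at 52.8 kb and Cpsf6 at 62.4 kb, had log2 fold changes of 0.33 and 0.07 in preOCs (edgeR adjusted p = 0.176 and 0.694). Yeats4 passed within libraries 4 to 6, at 0.39 (edgeR adjusted p = 0.0051), and with the replicate block, at 0.26 (edgeR adjusted p = 0.0447).

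All 3 lower genes lie on the Lyz1 side, 451.4 kb or more from Lyz2. Mdm1, a protein of centrioles, lies 859.5 kb away and had 16.0 to 21.8 CPM in Bap1flox and 5.38 to 9.80 CPM in Bap1LysM preOCs, a log2 fold change of -1.43 (SE 0.15, edgeR adjusted p = 0.000382). Its groups did not overlap, and Bap1LysM library 1 had 6.33 CPM, within the range of the other 4. Slc35e3, a member of the nucleotide sugar transporter family, was at -0.84 (SE 0.16, edgeR adjusted p = 0.00479) and Nup107, a nuclear pore protein, at -0.43 (SE 0.09, edgeR adjusted p = 0.00973). In library 1, where Lyz2 stood at 86.8% of its controls, Slc35e3 had 9.65 CPM against 11.4 to 14.9 in Bap1flox preOCs, and Nup107 had 35.8 CPM against 45.3 to 53.1. These 3 genes kept their calls without library 1, where Slc35e3 fell by 1.00, Mdm1 fell by 1.41 and Nup107 fell by 0.46 on the log2 scale. Within libraries 1 to 3 none of the 3 passed, where 0 of all 13611 tested genes did. The log2 fold changes there were -0.59, -1.09 and -0.24 for Slc35e3, Mdm1 and Nup107 (edgeR adjusted p = 0.2, 0.173 and 0.318). In BMMs the values were -0.45, -0.16 and 0.49 in the same order, and none passed (edgeR adjusted p = 0.147, 0.761 and 0.203).

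**Figure D5:**
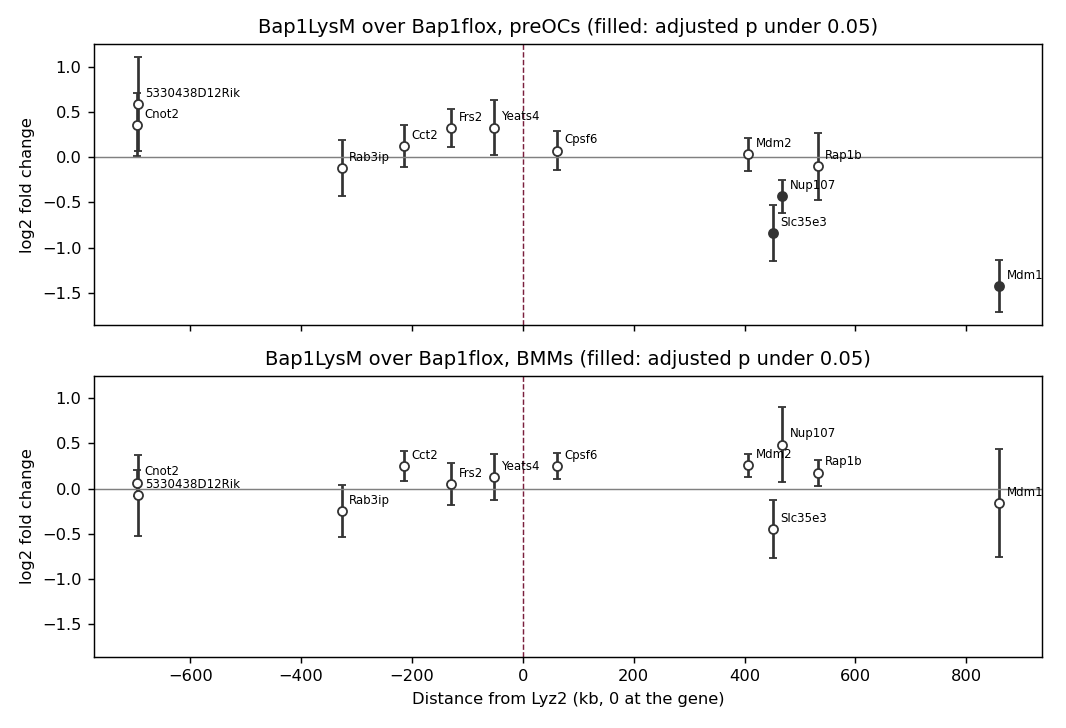
Log2 fold change between genotypes for the tested genes within 1 Mb of Lyz2, against distance from Lyz2 in kb, in preOCs (top) and BMMs (bottom), with bars of 95% intervals and filled points past the edgeR adjusted p. In preOCs Slc35e3, Nup107 and Mdm1 are the filled points, at -0.84, -0.43 and -1.43.

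Genes most like each lysozyme were listed by Pearson correlation of log2 CPM among 13809 genes, as a description. Over the 9 Bap1flox libraries, whose spread is mostly that between BMMs and preOCs, Tmem50a (r = 0.997), G6pdx, Hpgds, Fli1 and Ampd3 came first for Lyz2, and Mapre3 (r = 0.997), Ankfy1, Ankrd33b and Nectin4 were among the first 5 for Lyz1. Lyz1 itself ranked 1351 for Lyz2 there, with r = 0.901, the 2 library sets having different ratios. Over all 17 libraries, which share the groups and the low Lyz2 of 6 Bap1LysM libraries, Sbk1 (r = 0.92), Gde1, Angel1, Wdr60 and Ehhadh came first for Lyz2, with Lyz1 at rank 156 (r = 0.78). For Lyz1 these were Rtl5 (r = 0.91), Mcur1, Hook2, 4930455G09Rik and Bcorl1.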

How the data were processed

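RNA was selected with oligo-dT and sequenced as paired reads of 150 bases. Per the methods, the authors used STAR 2.5.1a on the Ensembl GRCm38 assembly and featureCounts 1.4.6-p5, and kept reads with a unique place and gene. The strand setting is not given in the sources used here. The deposited files hold counts, which the authors left without normalization, and the deposited CPM and RPKM values, found here to be the count divided by the library total and the CPM divided by gene length. Symbols came from GENCODE M21, and 355 ribosomal RNA genes were left out. Depth ranges stand in the report.

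Tests used edgeR 4.0.16 in R 4.3.3, the quasi-likelihood test with TMM factors, on genes with CPM above 1 in at least the smaller group size minus 1 libraries. Adjustment was by Benjamini-Hochberg over all tested genes, with a threshold of 0.05. Ratios used exact permutation tests over libraries (scipy). Genes named beside Lyz2 and Lyz1 are the lysozyme list, up to 4 genes with the largest change per list or locus, and the 5 genes most like each member. Yeats4, Cpsf6, Ly6g, Mmp8, Cd68 and the B cell markers at low level were named after their values were seen. Some genes that the naming rule covers are not reported here. The members and lists were chosen with earlier results of these data known. The study describes its preOC samples as biologically independent, but the labels do not tie libraries to mice, so p-values measure the spread between libraries.

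Same-numbered libraries deviated together from their group means, with correlations of 0.24 to 0.37 in the RANKL comparison of Bap1flox, 0.33 and 0.47 in that of Bap1LysM, which has 2 pairs, 0.39 to 0.73 between preOC genotypes and 0.36 to 0.54 between BMM genotypes. In preOCs the number also separates the library sets. Where the block changes a call of Lyz2 or Lyz1 or a list's count that the report gives, its value stands beside the result or in the closing section.

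The alternatives were limma voomWithQualityWeights (3.58.1), DESeq2 1.42.0, RLE and upper-quartile factors, no filter, CPM above 5, both lysozymes out of library sizes, the replicate block, a library set term, each set alone, all libraries in a single fit, and each library left out. On simulated counts with 200 changed genes, edgeR recovered 97% of 4-fold and 70% of 2-fold changes in the RANKL comparison of Bap1flox, 96% and 71% between preOC genotypes, 97% and 49% between BMM genotypes, 75% and 19% in the RANKL comparison of Bap1LysM, and 67% and 20% for the interaction. Of its calls there 6.18% to 10.5% were false, and of those of DESeq2 19.7% and 22.6% in the preOC and RANKL comparisons.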

Additional observations from a re-analysis of the deposited data

Results flagged for a closer look

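In Bap1LysM preOCs, Lyz2 in library 1 was far from the other 4, at 6715 CPM against at most 39.0. The log2 ratio of Lyz1 to Lyz2 per length was far from the others in the same library, at -4.85 against at least 1.80. Dixon's test at 95% marks each value, and chance marks about 1 in 20 groups. The 2 values rest on the same counts of Lyz2. Bap1LysM BMM library 1 had a like level of Lyz2, but its group has 3 libraries and was not tested in this way.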

How the results depend on the processing

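The fall of both lysozymes with RANKL in Bap1flox cells kept its direction under every alternative run. Lyz2 lost its call in the fit of all 17 libraries (-1.29, edgeR adjusted p = 0.516), and with 3 against 3 libraries the exact permutation of log2 CPM (-1.58 for Lyz2, -1.60 for Lyz1), added after seeing the data, cannot pass the threshold. Leaving out each library gave -1.68 to -1.48 for Lyz2 and -1.71 to -1.49 for Lyz1, all called. With the replicate block Lyz2 was at -1.59 and Lyz1 at -1.61.

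The values that involve Bap1LysM rest on libraries numbered 1. The RANKL change of Lyz2 in Bap1LysM turned negative with the replicate block (-0.98), without both libraries numbered 1 (-1.40), with all preOCs (-1.19) and in the fit of all 17 (-1.20). Leaving out each library moved it from -7.99 to 6.69, that of Lyz1 from -1.73 to 0.88, and the count of called genes from 71 (without BMM library 2) to 3634. The last was 4073 with DESeq2, 1628 with voomWithQualityWeights, 4415 without libraries numbered 1, 5113 with all preOCs and 6694 in the fit of all 17.

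Lyz2 passed between preOC genotypes with voomWithQualityWeights (-7.57), the replicate block (-7.53), without library 1 (-8.12), in numbers 4 to 6 (-8.09) and by exact permutation (-6.59), the range without each library being -8.12 to -2.28. Leaving out any library other than number 1 left it uncalled. The library set as a term gave -4.70 (edgeR adjusted p = 0.0876). Called genes numbered 2043, and 7099 with voomWithQualityWeights, 4236 with the replicate block, 3112 without library 1, 4349 with the set term, 0 in numbers 1 to 3, 4304 in numbers 4 to 6 and 1117 (without Bap1LysM library 4) to 3112 without each library. In BMMs Lyz2 passed with voomWithQualityWeights (-7.04) and without library 1 (-9.31), and ranged from -9.31 to -2.13 without each library. Lyz1 passed there with voomWithQualityWeights (-2.41), the replicate block (-2.33), without library 1 (-3.03) and in the fit of all 17 (-1.89), and ranged from -3.03 to -1.51. Called genes numbered 693 in BMMs, and 2065 with DESeq2, 1772 with voomWithQualityWeights, 2107 with the replicate block, 353 without library 1 and 4 (without Bap1flox library 3) to 693 without each library.

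For the interaction, leaving out each library gave -6.41 to 8.27 for Lyz2, -0.13 to 2.49 for Lyz1 and 0 to 118 called genes (118 without Bap1LysM preOC library 2), with 111 by DESeq2 and 288 in the fit of all 17. The preOC log2 ratio kept its direction but not its call in numbers 1 to 3 (3.65) and 4 to 6 (7.87), where too few libraries remain to pass. With voomWithQualityWeights, 1 and 2 lysozyme family genes passed between preOC and BMM genotypes, 2 antibacterial genes in BMMs, 5 and 1 factors, and 7 and 3 macrophage identity genes, where that test called 54.9% and 13.6% of all genes. The lysozyme list had 1 call in preOCs without library 1, Lyz2 being lower. In numbers 4 to 6 it had 2, with Lyz2 lower and Lyzl4 higher by 0.66 on the log2 scale (edgeR adjusted p = 0.0429). Both counts were added after seeing the data. DESeq2 gave no p for Lyz2 where Bap1LysM entered. With the replicate block, added for these lists and the neighbours after seeing the data, 1 lysozyme family gene passed in each genotype comparison, 4 antibacterial genes in the RANKL comparison of Bap1LysM and 2 between BMM genotypes, 3 factors between preOC genotypes, and 7, 4 and 4 macrophage identity genes in the RANKL comparison of Bap1LysM and between preOC and BMM genotypes. Over all genes the block called 19.5% in the RANKL comparison of Bap1LysM, 32.8% between preOC and 16.2% between BMM genotypes. Near Lyz2 7 genes passed in preOCs with it and with the set term, 6 with voomWithQualityWeights and in numbers 4 to 6, and 0 in numbers 1 to 3, and in BMMs 2 with DESeq2 and with voomWithQualityWeights. No call of edgeR in the RANKL comparison of Bap1flox or between genotypes was lost with the block among the lists and the neighbours.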
